A study of Mus musculus with 12 samples.

Results

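The SRC family kinases were followed in pre-B cell lines with and without BCR-ABL1, a fused and constantly active tyrosine kinase that arises from the Philadelphia chromosome. The set was chosen by name and holds 9 of the 51826 genes in the count table, namely the 7 kinases Lyn, Blk, Fyn, Fgr, Lck, Src and Yes1 and the 2 regulators Csk and Pag1. Each gene identifier of the table was matched to its symbol, and all 9 were present. RNA was sequenced from 12 lines that started as C57BL/6 marrow cells of 2 mice, and each mouse gave 3 lines per condition. All cells spent 7 days with interleukin 7 (IL7), the cytokine on which cultured mouse pre-B cells depend. They were then transduced with the retroviral vector pMIG, either empty (EV) or with BCR-ABL1. After 48 h the BCR-ABL1 lines were cultured without IL7 for 1 week. IL7 was left on the EV lines, which were then sorted by the vector's GFP. The paper describes this sort for the EV lines and a selection of transformed cells by IL7 withdrawal. BCR-ABL1, the loss of IL7, this selection and the sort therefore cannot be told apart. Lines of the same mouse share an animal, and p-values measure the spread between lines of these 2 mice. Lines are named by condition, mouse and letter.

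SRC family kinases are tyrosine kinases that a fatty acid anchors to the inner face of the plasma membrane. Their activity is held down by a tyrosine close to the C terminus. When the kinase CSK phosphorylates this tyrosine, the tail binds the SH2 domain of its own molecule and closes it, and phosphatases such as CD45 open it again. PAG1 is a membrane adaptor that brings CSK to the kinases. In B lineage cells LYN, BLK and FYN phosphorylate the signal chains of the pre-B cell receptor, and LYN also phosphorylates inhibitory receptors such as CD22 and CD72. LYN and FGR have been studied as partners of BCR-ABL1 in B lineage leukaemia.

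The coding end of each kinase is shown because it carries the site on which CSK and the phosphatases act. It was read from the GENCODE M21 transcript with the longest coding sequence, with positions on GRCm38, and it lies in the last coding exon and ends before the stop codon. Capitals mark the codon of the tail tyrosine.
Lyn, chr4:3789900-3789941, plus strand: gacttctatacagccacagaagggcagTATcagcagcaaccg
Blk, chr14:63373395-63373436, minus strand: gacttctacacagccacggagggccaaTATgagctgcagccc
Lck, chr4:129548801-129548842, minus strand: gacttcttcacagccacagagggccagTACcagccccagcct
Fyn, chr10:39563922-39563969, plus strand: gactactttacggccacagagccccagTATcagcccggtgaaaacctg
Fgr, chr4:133000293-133000340, plus strand: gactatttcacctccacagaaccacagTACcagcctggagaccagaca
Src, chr2:157469911-157469958, plus strand: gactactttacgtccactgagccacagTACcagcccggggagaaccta
Yes1, chr5:32684709-32684756, plus strand: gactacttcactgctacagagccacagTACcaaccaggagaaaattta
A glutamine codon stood before the tyrosine codon in all 7 kinases. Lyn, Blk and Lck had 4 codons after the tyrosine, and Fyn, Fgr, Src and Yes1 had 6. Of the 30 bases up to and including the tyrosine codon, Fyn and Src shared 26, as did Blk and Lck, whereas Blk and Fgr shared 18. The bases after this codon were not compared. Across whole transcripts, the longest exact run shared by any pair of these kinases was 23 bases, so a longer stretch of these transcripts matches only 1 of them exactly. Exons of Lyn overlapped 248 bases of the antisense lincRNA Gm26857 and exons of Yes1 overlapped 635 bases of the opposite-strand Gm10461. The library kit marks strand, but the strand setting of the counting is not given in the sources used here.

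Total counts ranged from 34791011 to 64547911 in EV lines and from 45230023 to 66011225 in BCR-ABL1 lines. Levels are given as CPM, a gene's counts scaled to a common library size, here by the TMM method, and levels of different genes are compared only per kilobase (kb) of exon. All 12 B lineage markers of a fixed list, among them Cd79a, Cd79b and Pax5, had over 3 counts in every line. Their sum lay between 2950 and 5526 CPM in EV lines and between 3273 and 4275 CPM in BCR-ABL1 lines. In the test described below, 1 of them was higher with BCR-ABL1 (Dntt) and 0 were lower. Dntt lay between 0.101 and 18.45 CPM in EV lines and between 31.65 and 179 CPM in BCR-ABL1 lines. The spread between lines was uneven. The biological coefficient of variation was 0.386 for the EV lines of mouse 2 against 0.0844 to 0.103 for the other 3 groups of lines. EV 2C had the lowest Blnk and Rag1 levels of all EV lines at 73.0 and 14.5 CPM, and EV 2B had 35.5 CPM of Cd2 against 2.40 CPM in the lowest EV line. In EV 2C the 12 B lineage markers summed to 2950 CPM. They summed to 3098 to 3338 CPM in the EV lines of mouse 1 and to 5100 and 5526 CPM in EV 2A and 2B. A further EV line, 2A, was the shallowest and was the only line in which all 7 stromal markers had over 3 counts, with a sum of 1.93 CPM. EV 2A also had the highest sums of myeloid markers (2.21 CPM) and of mast cell and basophil markers (0.307 CPM). Fewer cells of a type and less RNA per cell cannot be told apart in these bulk samples.

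Blk was the most abundant SRC family kinase RNA in both conditions, and Lyn, Fyn and Lck made up nearly all of the rest. In BCR-ABL1 lines Blk stood at 135 ± 10.1 CPM per kb (SD, n = 6), Lck at 30.4 ± 8.76, Lyn at 20.2 ± 3.19 and Fyn at 19.4 ± 1.69. In EV lines Blk was at 112 ± 43.6 CPM per kb, Fyn at 33.4 ± 7.65, Lyn at 33.0 ± 12.6 and Lck at 27.9 ± 6.88. In EV lines the ranges of Fyn, Lyn and Lck overlapped, so their order there does not hold beyond their spread. In BCR-ABL1 lines Lyn overlapped both others, while Lck, at 22.8 to 42.1 CPM per kb, lay above Fyn, at 17.1 to 20.9, in every line. Blk exceeded them in every BCR-ABL1 line and in every EV line but 2C, where Fyn was higher. Src, Fgr and Yes1 were rare, at 0.246 ± 0.0757, 0.0277 ± 0.0146 and 0.0258 ± 0.00524 CPM per kb in BCR-ABL1 lines and at 0.121 ± 0.0552, 0.203 ± 0.108 and 0.0238 ± 0.0260 CPM per kb in EV lines.

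**Figure D1:**
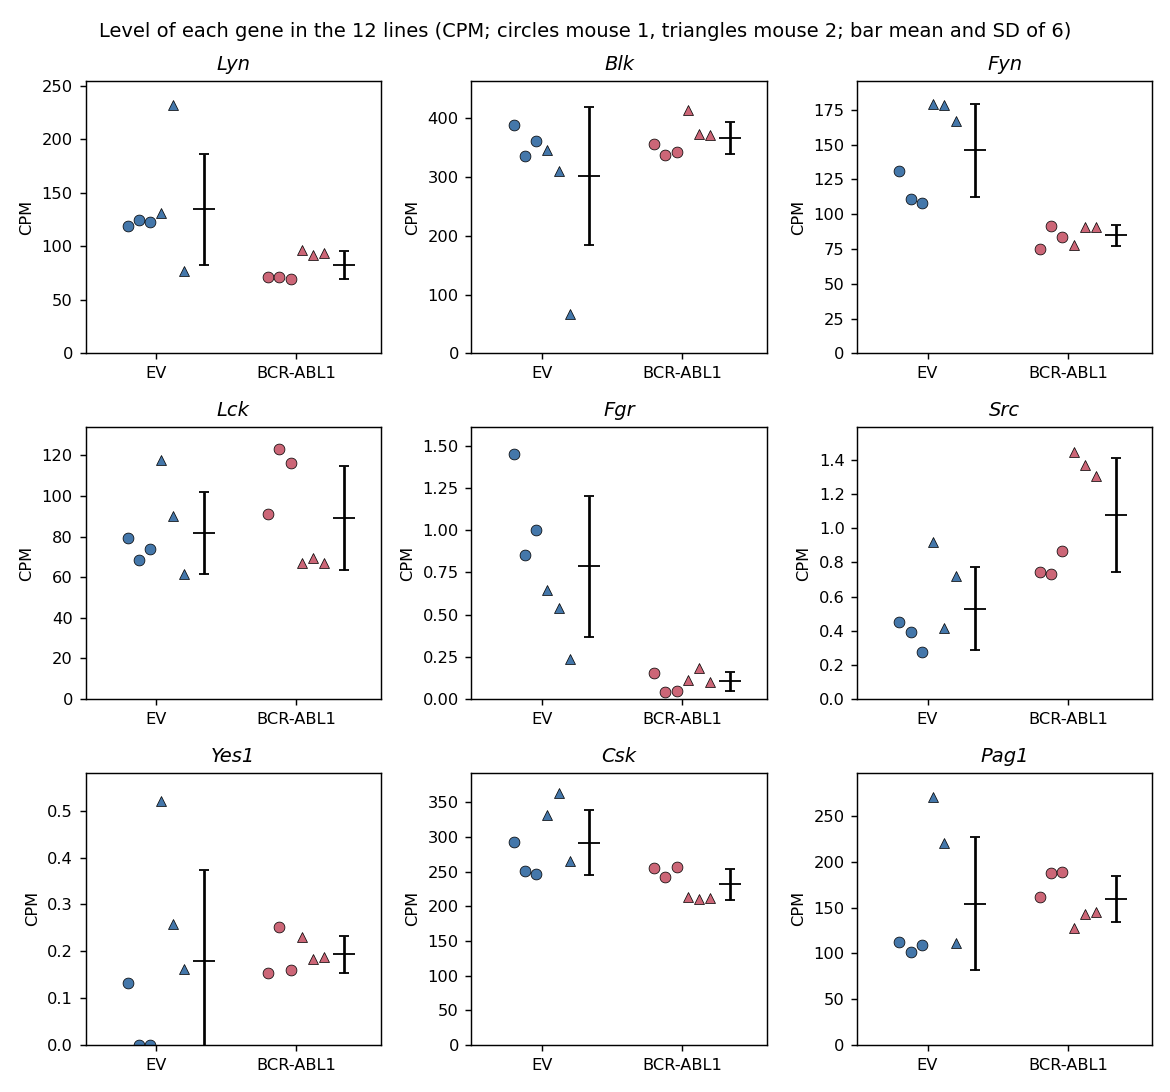
CPM of each of the 9 genes in the 12 lines, on linear axes from 0. Blue is EV, red is BCR-ABL1, circles are mouse 1, triangles are mouse 2, and the bar gives the mean and SD of 6 lines (cut at 0 for Yes1). Fyn and Fgr are the genes whose conditions do not overlap, and the lowest triangle of Blk is EV 2C at 67.5 CPM.

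The question asked of these genes was whether their RNA differed between BCR-ABL1 and EV lines. The test was edgeR's glmTreat against a 1.5-fold change on a quasi-likelihood fit, with Benjamini-Hochberg adjustment over the 15038 genes that passed the count filter and a threshold of 0.05. The fit held condition only, with no term for mouse. Of the 9 genes 8 passed the filter and Yes1 did not. In this test 1 of the 8 fell (Fgr) and 0 rose, whereas 12.5% of all tested genes passed, 5.99% as higher and 6.49% as lower. At an unadjusted p under 0.05 there were 1 higher and 2 lower. DESeq2 and a likelihood ratio fit, each tested against 1.5-fold, gave 0 higher and 1 lower. Shares of all genes under these rules are not given here, so these counts have no background. For the 8 genes the median log2 fold change was -0.14, and that of all tested genes was -0.02. Against no change at all, 5 of the 8 passed (Src higher, Lyn, Fyn, Fgr and Csk lower), and so did 48.5% of all genes. Values of 2 of the 8 (Fyn and Fgr) did not overlap between the conditions, as for 25.6% of all genes. With mouse as replicate block in the 1.5-fold test, 1 of the 8 rose (Src) and 1 fell (Fgr), and 14.7% of all genes passed.

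Fgr, a kinase best known from myeloid cells, was low in the EV lines and lower in the BCR-ABL1 lines. EV lines 1A, 1B and 1C held 77, 59 and 65 Fgr counts and 2A, 2B and 2C held 21, 27 and 13. The BCR-ABL1 lines held 9, 2 and 2 counts for mouse 1 and 6, 12 and 5 for mouse 2. Every EV line lay above every BCR-ABL1 line in CPM, and BCR-ABL1 lines 1B and 1C were under the floor of 3 counts. The mean was 0.786 ± 0.419 CPM in EV and 0.107 ± 0.0564 CPM in lines with BCR-ABL1 (SD, n = 6). Fgr fell with a log2 fold change of -2.82 ± 0.42 (SE of the difference of log2 CPM means; edgeR adjusted p = 0.0021). Over the leave-outs of each line it lay between -3.04 and -2.53, with adjusted p between 0.000378 and 0.00638. A filter of at least 1 CPM in 6 lines removed Fgr from the test. The 12 myeloid markers summed to at most 2.21 CPM in any line, and in EV 1A and 1C, the lines with the highest Fgr, they summed to 0.301 and 0.292 CPM. Of these markers, 5 had at most 3 counts in every line (Elane, Ctsg, Cd14, Csf3r and Fcgr1), and the highest count was 32, for Adgre1 in EV 2A. Their part in the difference of Fgr was not tested.

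The 250 bases before the Fgr start, from the RefSeq promoter table on GRCm38.p6, are shown as the promoter of the gene that passed the test, with an ETS core in capitals.
Fgr promoter, chr4:132973845-132974094, plus strand: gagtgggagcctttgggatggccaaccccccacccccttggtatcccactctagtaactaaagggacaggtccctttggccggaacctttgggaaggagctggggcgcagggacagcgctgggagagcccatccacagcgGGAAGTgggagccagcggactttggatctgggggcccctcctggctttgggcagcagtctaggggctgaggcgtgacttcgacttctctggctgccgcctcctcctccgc
The promoter table held 6 of the 9 genes (Fyn, Fgr, Lck, Src, Yes1 and Csk), with 2 starts for Lck and for Csk. Both strands were searched for the ETS core GGAAGT, for the STAT core TTCNNNGAA, for the E-box CANNTG, for the TATA box TATAAA, for the CCAAT box and for the GC box GGGCGG, and matches to different motifs did not overlap in the 2 promoters printed. The ETS letters occurred in the promoter of Fgr and in both promoters of Lck, and in 19.7% of all 32851 promoters of the table. The STAT letters occurred in none of the 8 promoters and in 7.02% of all. The single Fyn promoter held a CCAAT match and a GC box, which 33.8% and 32.7% of all promoters hold, and its guanine and cytosine content was 67.2%. These matches describe letters only.
Fyn promoter, chr10:39369549-39369798, plus strand: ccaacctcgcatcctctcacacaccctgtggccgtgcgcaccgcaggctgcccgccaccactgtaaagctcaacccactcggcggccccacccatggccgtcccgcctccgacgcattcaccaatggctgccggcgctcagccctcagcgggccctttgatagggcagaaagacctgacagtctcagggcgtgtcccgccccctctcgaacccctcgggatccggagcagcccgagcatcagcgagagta
No STAT, ETS or E-box letters occur in this Fyn window, so it has no capitals.

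The genes closest to Fgr in pattern, by the root mean square difference of mean-centred log2 CPM over the 12 lines among 10639 genes whose log2 CPM averaged at least 1, were Iglv3, Arvcf and Gm15326. Iglv3 is a variable segment of the lambda light chain, and Arvcf encodes a catenin. Their differences to Fgr were 0.433, 0.461 and 0.501 log2 units, and their log2 fold changes were -2.84, -2.74 and -2.56.

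Fyn, which phosphorylates receptor chains in B and T cells, had a mean of 146 ± 33.4 CPM in EV and 84.8 ± 7.39 CPM in BCR-ABL1 lines (SD, n = 6), with no overlap between conditions. Its level was 131, 111 and 108 CPM in the EV lines of mouse 1 and 179, 179 and 167 CPM in those of mouse 2. The BCR-ABL1 lines had 74.7, 91.3 and 83.3 CPM in mouse 1 and 77.5, 90.6 and 91.1 CPM in mouse 2. The EV lines of mouse 2 were the highest, and the BCR-ABL1 lines of both mice covered the same range. Over all lines the log2 fold change was -0.78 ± 0.15, which did not pass the 1.5-fold test (edgeR adjusted p = 0.153), while it passed the test against no change (adjusted p = 0.000832). In mouse 2 alone, fitted with all 12 lines, Fyn fell by 1.02 on the log2 scale (SE 0.083, adjusted p = 0.00293).

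Lyn, the kinase that serves both activating and inhibitory receptors in B cells, varied more between EV lines than between BCR-ABL1 lines. It stood at 119, 124 and 123 CPM in the EV lines of mouse 1 and at 131, 232 and 76.8 CPM in those of mouse 2. BCR-ABL1 lines had 70.9, 71.1 and 69.2 CPM in mouse 1 and 96.1, 92.0 and 94.0 CPM in mouse 2. The conditions overlapped only through EV 2C, while EV 2B was far above all other lines. The log2 fold change of -0.71 ± 0.23 did not pass the 1.5-fold test (edgeR adjusted p = 0.444) and passed the test against no change (adjusted p = 0.0167). Without EV 2B it was -0.49, and without EV 2C it was -0.82 (adjusted p from 0.145 to 1 over the leave-outs of each line). In mouse 2 alone, fitted with the lines of both mice, it was -0.64 ± 0.46 (adjusted p = 0.647), and without EV 2C it was -0.94 and passed (adjusted p = 0.0257).

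Blk, the kinase most restricted to B lineage cells, did not pass the test in either direction. EV lines had 388, 336 and 361 CPM in mouse 1 and 346, 311 and 67.5 CPM in mouse 2. BCR-ABL1 lines had 355, 338 and 343 CPM in mouse 1 and 413, 372 and 371 CPM in mouse 2. EV 2C was more than 4-fold below any other line, and the other 5 EV lines lay between 311 and 388 CPM. Blk had a log2 fold change of 0.28 ± 0.40 (edgeR adjusted p = 1) and 0.07 without EV 2C.

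Src, the ubiquitous founder of the family, was rare in all lines, with a mean of 0.529 ± 0.242 CPM in EV and 1.08 ± 0.331 CPM in BCR-ABL1 lines (SD, n = 6). EV lines held 24, 27 and 18 Src counts in mouse 1 and 30, 21 and 40 in mouse 2. BCR-ABL1 lines held 44, 35 and 38 counts in mouse 1 and 75, 90 and 63 in mouse 2. Within each mouse every BCR-ABL1 line exceeded every EV line in CPM, but EV 2A at 0.920 CPM exceeded the BCR-ABL1 lines of mouse 1 at 0.732 to 0.863 CPM. The log2 fold change was 1.04 ± 0.30 with an edgeR adjusted p of 0.153. With mouse as replicate block it was also 1.04 and passed (adjusted p = 0.0358), in a fit in which 14.7% of all genes passed. Without EV 2A, the line with the 1.93 CPM of stromal markers, it was 1.24 and passed (adjusted p = 0.0479). The part of the stromal and other non-B marker signals of EV 2A in the Src counts was not tested.

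Yes1, another widely expressed member, was near the limit of detection, and 2 EV lines had 0 counts. Its counts were 7, 0 and 0 in the EV lines of mouse 1, 17, 13 and 9 in those of mouse 2, 9, 12 and 7 in mouse 1 with BCR-ABL1 and 12, 12 and 9 in those of mouse 2. The highest level, 0.521 CPM, was again in EV 2A. At 0 counts, the limit of 3 counts per line still allows a low level. Without a gene filter the log2 fold change was 0.29 (edgeR adjusted p = 0.938).

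**Figure D2:**
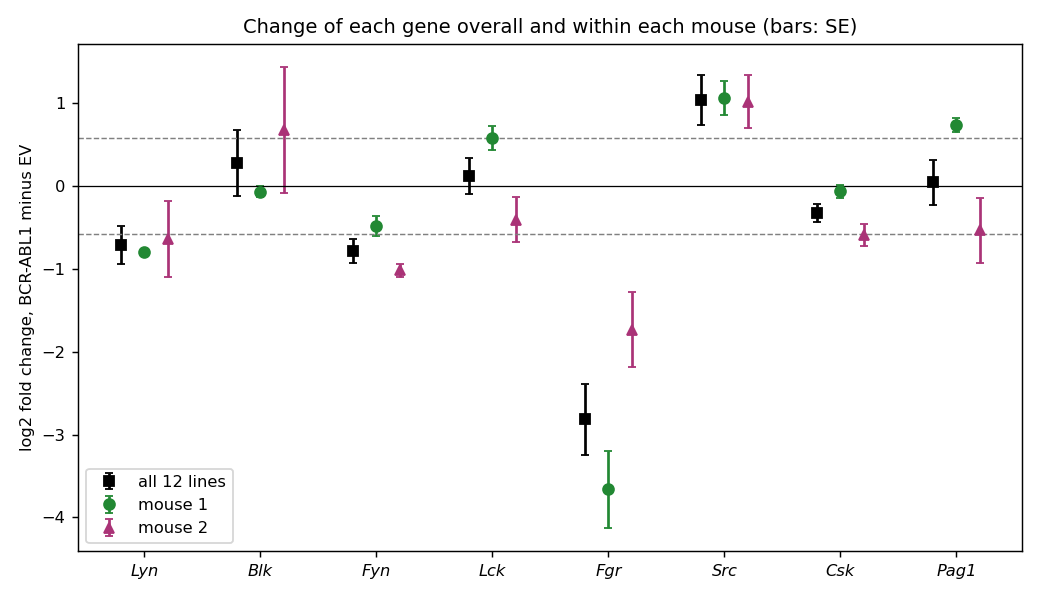
log2 fold change, BCR-ABL1 minus EV, of the 8 tested genes over all 12 lines (black squares), in mouse 1 (green circles) and in mouse 2 (purple triangles), with SE as bars and dashed lines at a 1.5-fold change. Fgr lies below the lower line throughout, Src above the upper line throughout, and Lck, Csk and Pag1 are lower in mouse 2 than in mouse 1.

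The regulators Csk and Pag1 did not pass the test over all lines. Csk, the kinase that closes the family, was at 293, 251 and 246 CPM in the EV lines of mouse 1, and at 331, 363 and 265 CPM in those of mouse 2. It was at 256, 243 and 257 CPM in mouse 1 and at 213, 210 and 211 CPM in mouse 2 in the BCR-ABL1 lines. The BCR-ABL1 lines of mouse 2 were below all other lines, whereas the conditions overlapped in mouse 1. The log2 fold change was -0.33 ± 0.11 (edgeR adjusted p = 1 against 1.5-fold and 0.0218 against no change). Pag1, the adaptor that recruits Csk, was at 112, 102 and 109 CPM in the EV lines of mouse 1 and at 271, 220 and 112 CPM in those of mouse 2. BCR-ABL1 lines had 162, 187 and 189 CPM in mouse 1 and 128, 143 and 145 CPM in mouse 2. Its log2 fold change was 0.04 ± 0.27 over all lines (edgeR adjusted p = 1).

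Lck, the family member of T cells that pre-B cells also express, had opposite signs in the 2 mice. It was at 79.4, 68.2 and 73.8 CPM in the EV lines of mouse 1 and at 90.9, 123 and 116 CPM in its BCR-ABL1 lines. In mouse 2 it was at 118, 90.0 and 61.4 CPM in EV and at 67.1, 69.4 and 66.8 CPM in BCR-ABL1 lines. Lck had a log2 fold change of 0.12 ± 0.21 over all lines (edgeR adjusted p = 1), 0.58 ± 0.15 in mouse 1 (adjusted p = 0.653) and -0.40 ± 0.27 in mouse 2 (adjusted p = 1). The T and NK cell markers summed to 72.7 to 87.8 CPM with BCR-ABL1 and to 3.64 to 37.7 CPM with EV. Of this, Cd2 alone gave 71.8 to 87.0 CPM in BCR-ABL1 lines. The NK cell receptor gene Klrb1c was at 0.353 to 3.68 CPM with BCR-ABL1 and at 0.0289 to 1.07 CPM with EV. The T cell receptor complex gene Cd3d was at 0.0304 to 0.116 CPM with BCR-ABL1 and at 0.234 to 0.644 CPM with EV, while Cd3e and Cd4 had 0 counts in all BCR-ABL1 lines and at most 4 and 7 counts in any EV line. The part of these markers in the level of Lck was not tested.

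The same comparison was made within each mouse, in a fit of all 12 lines with a mean for each mouse and condition. In mouse 1, 1 of the 8 genes passed (Fgr, log2 fold change -3.66 ± 0.47, adjusted p = 0.000377), against 19.3% of all genes. In mouse 2, 1 of the 8 passed (Fyn), against 12.9% of all genes, and Fgr had a log2 fold change of -1.73 ± 0.45 there (adjusted p = 0.0749). Without EV 2C, 4 of the 8 passed in mouse 2, all lower, namely Fgr, Fyn, Lyn and Pag1. For fits within a mouse or between mice, the share of all genes that passed with a line left out was not counted. In the comparison of conditions, leaving out EV 2C raised the calls among all genes to 1353 higher and 1434 lower, from 901 and 976.

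The change itself differed between the mice for 4 of the 8 genes (Fyn, Lck, Csk and Pag1) by the interaction of mouse and condition in edgeR, against 16.9% of all genes. For each of them the change was more negative in mouse 2. The difference, mouse 2 minus mouse 1, was -1.27 for Pag1 (adjusted p = 0.0249), -0.98 for Lck (adjusted p = 0.0303), -0.53 for Fyn (adjusted p = 0.0302) and -0.53 for Csk (adjusted p = 0.0420). Pag1 was 0.74 ± 0.085 in mouse 1 and -0.53 ± 0.39 in mouse 2, and Csk was -0.07 ± 0.082 and -0.60 ± 0.13. These calls depended on which lines and genes were included. With any of 8 of the 12 lines left out, at most 1 of the 4 still passed (Fyn), although the differences kept their sign, down to -1.56 for Pag1, -1.19 to -0.74 for Lck, -0.61 to -0.46 for Fyn and -0.65 to -0.43 for Csk. Without EV 2C all 4 passed, with adjusted p from 4.3e-06 (Pag1) to 0.00925 (Fyn). With no filter on low counts, Pag1 and Lck passed (adjusted p = 2.59e-07 and 0.000239), while Fyn and Csk did not (adjusted p = 0.211 and 0.230). Blk, Fgr and Yes1 passed there instead, with differences of 0.86 (adjusted p = 0.000502), 2.02 (adjusted p = 0.0370) and -2.69 (adjusted p = 0.0402). The share of all genes that passed without this filter was not counted, so these calls have no background.

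Lines of one condition were also compared between the mice. Among EV lines 0 of the 8 genes passed glmTreat, against 10.3% of all genes, with 1 higher and 1 lower in mouse 2 at an unadjusted p under 0.05. Without EV 2C, Pag1 was higher in mouse 2 by 1.18 on the log2 scale (edgeR adjusted p = 0.000117). Among BCR-ABL1 lines 0 of the 8 passed, against 2.65% of all genes, with 0 at an unadjusted p under 0.05. The likelihood ratio fit also gave 0 in both comparisons. Shares of all genes at an unadjusted p or in the likelihood ratio fit are not given here.

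The make-up of the family was then described by the share of each kinase in the summed CPM per kb of the 7 kinases. The sum was 206 ± 52.9 CPM per kb in EV lines (103 in EV 2C and 204 to 244 in the others) and 206 ± 6.62 CPM per kb in BCR-ABL1 lines (198 to 218). The share of Blk was 51.7 ± 14.8% in EV and 65.8 ± 3.47% in BCR-ABL1 lines (SD, n = 6), that of Lyn 16.1 ± 4.04% and 9.79 ± 1.38%, that of Fyn 18.0 ± 9.63% and 9.45 ± 0.871%, and that of Lck 14.1 ± 3.6% and 14.8 ± 4.42%. The shares of Lyn (12.7 to 23.3% against 8.36 to 11.3%) and Fyn (11.5 to 37.1% against 8.16 to 10.2%) did not overlap between the conditions, whereas those of Blk and Lck did. Without EV 2B and 2C the EV means were 59.7% for Blk, 13.7% for Lyn, 13.5% for Fyn and 12.9% for Lck.

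**Figure D3:**
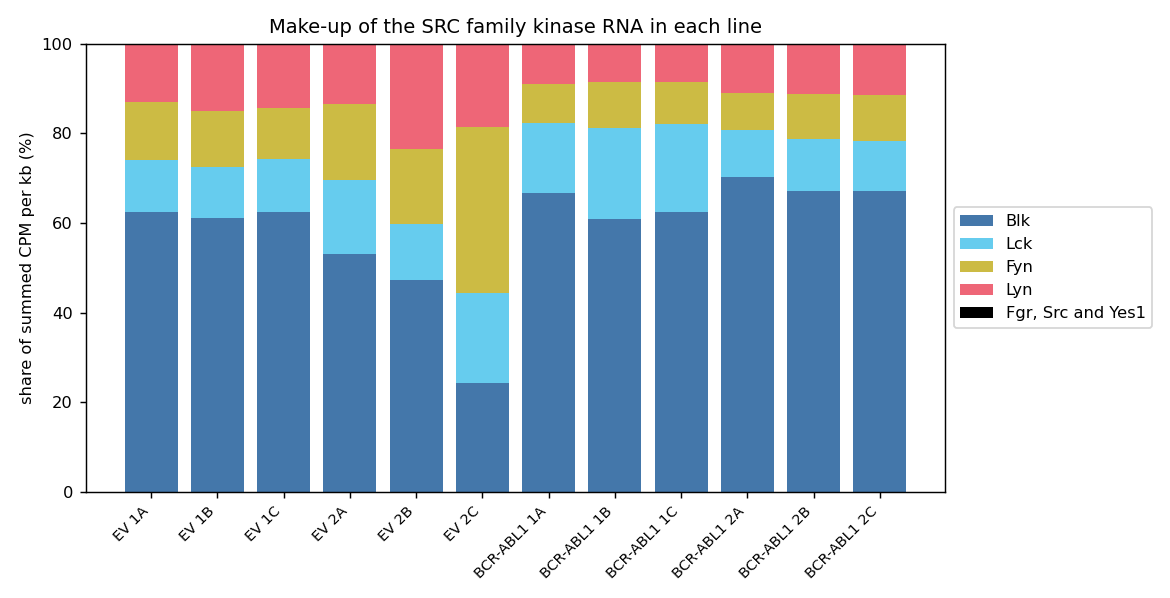
Share of each kinase in the summed CPM per kb of the 7 kinases, as stacked percent bars that start at 0 and add up to the whole, 1 bar per line. Blk makes up 60.8 to 70.3% in the BCR-ABL1 lines and 24.2% in EV 2C, and Fgr, Src and Yes1 are too rare to be seen.

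The level of Lyn relative to Blk was lower in every BCR-ABL1 line than in every EV line. The ratio of their CPM per kb in BCR-ABL1 lines was 0.132, 0.139 and 0.134 for mouse 1 and 0.154, 0.164 and 0.168 for mouse 2. In EV lines it was 0.204, 0.244 and 0.226 in mouse 1 and 0.250, 0.494 and 0.754 in mouse 2. The last 2 of these values come from EV 2B, with the highest Lyn, and EV 2C, with the lowest Blk. The ratio of the summed kinases to Csk was 1.46 to 3.25 in EV and 2.89 to 3.81 in BCR-ABL1 lines, and these ranges overlapped. These shares and ratios are descriptions without a test.

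**Figure D4:**
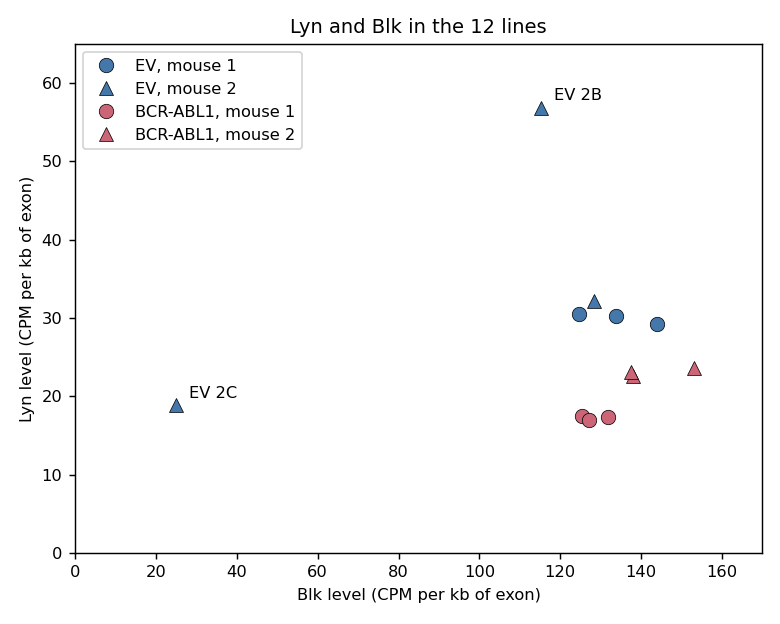
Lyn against Blk in CPM per kb of exon, 1 point per line, blue for EV and red for BCR-ABL1, circles for mouse 1 and triangles for mouse 2. EV 2B stands out by Lyn (56.9) and EV 2C by Blk (25.0), and the BCR-ABL1 lines of mouse 2 lie above those of mouse 1 in Lyn.

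Genes that work around the kinases were taken from 7 lists with 59 genes, of which 54 were tested. Of these, 3 rose and 5 fell, where 5.99% of all tested genes rose and 6.49% fell. The median log2 fold change of the tested list genes was -0.02. Counts per list at an unadjusted p, in DESeq2 and in the likelihood ratio fit are given without the share of all genes.

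Of 4 related kinases outside the family, only Matk, a kinase like CSK, was tested. It did not pass in edgeR (log2 fold change 2.27, adjusted p = 0.162), DESeq2 or the likelihood ratio fit, though it was higher at an unadjusted p under 0.05. With mouse as replicate block Matk passed (edgeR adjusted p = 0.00521). It also passed in separate fits of the mouse 1 lines alone (log2 fold change 5.49, adjusted p = 2.46e-06) and of the mouse 2 lines alone (log2 fold change 1.76, adjusted p = 0.0291).

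Among 5 phosphatases that can open the tail, 1 fell and 0 rose, also with DESeq2 and the likelihood ratio fit and at an unadjusted p under 0.05. Ptpra, a receptor phosphatase that acts on SRC and FYN, stood between 85.0 and 170 CPM in EV lines and between 51.9 and 69.1 CPM in BCR-ABL1 lines, without overlap. Its log2 fold change was -1.07 ± 0.15 (edgeR adjusted p = 0.00529). Ptprc, which encodes CD45, was at 417 ± 74.3 CPM in EV and 389 ± 8.45 CPM in BCR-ABL1 lines, with a log2 fold change of -0.10 ± 0.12 (adjusted p = 1). Ptpn1, Ptpre and Ptprj ranged from -0.20 to 0.48 and did not pass.

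Of 8 negative regulators 0 passed the edgeR test over all lines, and 0 passed with DESeq2 or the likelihood ratio fit, with 0 higher and 1 lower (Ptpn6) at an unadjusted p under 0.05. Ptpn6, which encodes the phosphatase SHP-1, was at 336 ± 81.6 CPM in EV and 182 ± 11.6 CPM in BCR-ABL1 lines, and only EV 2C at 199 CPM lay within the BCR-ABL1 range. Its log2 fold change was -0.88 ± 0.17 (adjusted p = 0.0694), and without EV 2C it was -0.99 and passed (adjusted p = 0.00138). Ptpn22, a phosphatase that works with CSK, was at 6.06, 7.97 and 7.26 CPM in the EV lines of mouse 1 and 1.47, 3.99 and 3.30 CPM in those of mouse 2. Its BCR-ABL1 lines had 4.27, 3.70 and 2.93 CPM in mouse 1 and 0.693, 0.760 and 0.747 CPM in mouse 2. For Ptpn22 the log2 fold change was -1.20 ± 0.62 (adjusted p = 0.359), and with mouse as replicate block it was -1.46 and passed (adjusted p = 0.0105).

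Of 9 membrane adaptors, 1 rose and 1 fell. Lat2, an adaptor that links receptor kinases to downstream signals in B and mast cells, fell from 4.98 to 9.50 CPM in EV lines to 1.63 to 3.14 CPM in BCR-ABL1 lines (log2 fold change -1.82 ± 0.23, edgeR adjusted p = 0.000807). Dok2, a docking protein that dampens tyrosine kinase signals, rose from 13 to 31 counts per EV line to 44 to 82 counts per BCR-ABL1 line (1.52 ± 0.22, adjusted p = 0.00441). Of 7 genes for lipid modification and folding of the kinases, among them Nmt1 and the HSP90 genes, 0 passed in edgeR, DESeq2 or the likelihood ratio fit or at an unadjusted p under 0.05, and their median log2 fold change was 0.49.

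Of 15 tested pre-B receptor chains and substrates, 2 rose and 1 fell. Bank1, a scaffold bound by LYN in B cells, rose from 3.47 to 9.35 CPM in EV lines to 34.1 to 62.5 CPM in BCR-ABL1 lines (log2 fold change 2.51 ± 0.27, edgeR adjusted p = 8.4e-05). Ptk2, which encodes the focal adhesion kinase FAK, had 0, 2, 0, 6, 4 and 0 counts in EV lines and 13 to 135 counts in BCR-ABL1 lines, and it passed as higher (adjusted p = 0.00546). Its fitted log2 fold change of 4.49 depends on the prior count because 3 EV lines were at 0. Zap70, a kinase related to Syk, had 38.1 to 76.3 CPM in EV lines, and with BCR-ABL1 it had 15.5 to 19.7 CPM in mouse 1 and 2.45 to 3.11 CPM in mouse 2 (-2.46 ± 0.60, adjusted p = 0.0147). Syk, Btk, Blnk and the receptor chains Cd79a and Cd79b had log2 fold changes from -0.58 to 0.35 and did not pass.

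Of 9 tested inhibitory receptors and partners on which LYN acts, 2 fell and 0 rose in edgeR, with the same counts at an unadjusted p under 0.05 and in the likelihood ratio fit and with 1 lower in DESeq2. Their median log2 fold change was -0.39. Cd72 lay between 244 and 592 CPM in EV lines and between 73.2 and 92.5 CPM in BCR-ABL1 lines, without overlap (log2 fold change -2.52 ± 0.20, edgeR adjusted p = 7.7e-06). Cd22 lay between 82.4 and 195 CPM in EV lines and between 21.8 and 81.4 CPM in BCR-ABL1 lines (-1.36 ± 0.34, adjusted p = 0.0345). The Cd22 call was lost with DESeq2 (adjusted p = 0.119) and with any of 5 lines left out (EV 1A, 2A or 2B, or BCR-ABL1 1A or 1C), where the adjusted p reached 0.0766.

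**Figure D5:**
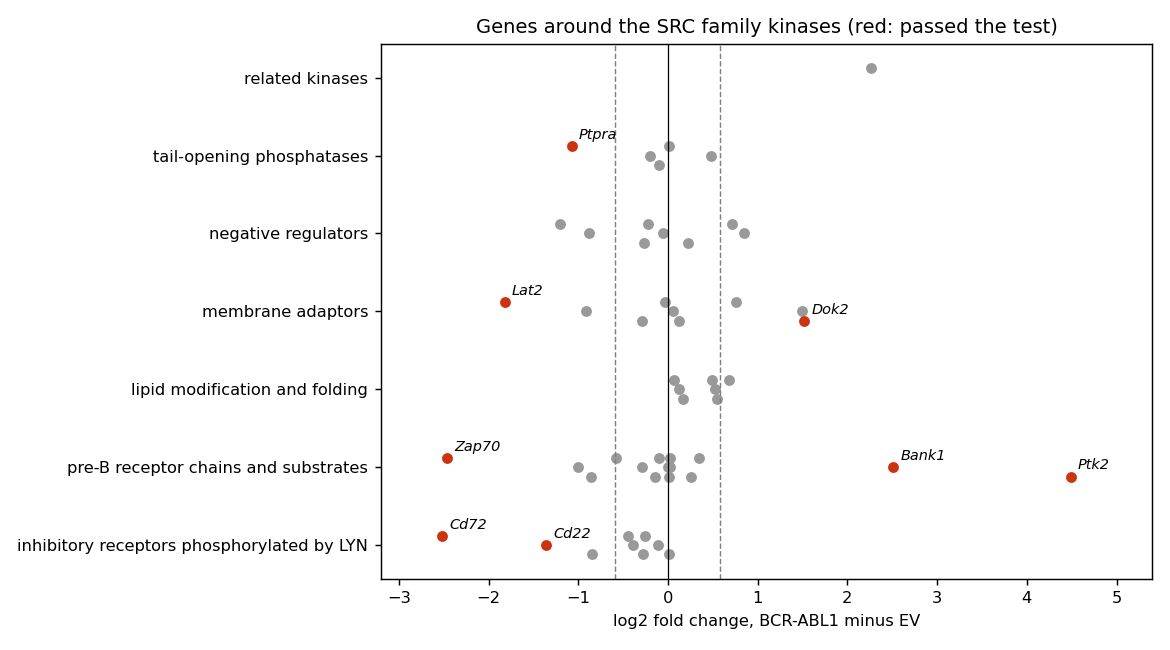
log2 fold change, BCR-ABL1 minus EV, of each tested gene of the 7 lists, 1 point per gene, with red and a name for the 8 genes that passed the test and dashed lines at a 1.5-fold change. The named genes run from -2.52 (Cd72) to 4.49 (Ptk2), and most others lie between the dashed lines.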

How the data were processed

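Counts of 51826 mouse genes in 12 lines were deposited by the authors as whole numbers, without normalization and with 1 column per line. The submitters' processing notes name FastQC 0.11.5, Trimmomatic 0.36, TopHat2 2.1.1, Bowtie2 2.3.2, featureCounts 1.5.3, R 3.6.1, edgeR 3.18.1 and the build GRCm38, without their roles. The strand setting and annotation release of the counting are not given in the sources used here. Libraries were stranded total RNA.

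Symbols for 51633 identifiers, exon lengths and overlaps came from GENCODE M21 on GRCm38. Fits used R 4.3.3 with edgeR 4.0.16 (filterByExpr, TMM, glmQLFit, glmTreat at 1.5-fold, Benjamini-Hochberg threshold 0.05). The study used glmTreat on a likelihood ratio fit, which was an alternative here, as was DESeq2 1.42.0. The interaction was tested with glmQLFTest. CPM were TMM-scaled, with a prior count of 2 for log2 CPM. SE are of unweighted differences of log2 CPM means. The log2 fold changes beside them are edgeR's fitted values, which can differ from those differences. On simulated data, glmTreat, the likelihood ratio fit, DESeq2, the contrast within mouse 2 and the interaction were tested. The other fits were not. Plots used matplotlib 3.10.9 in Python 3.11.15. The floor of 3 counts per line accounts for counting error alone: without molecular identifiers, several reads can come from 1 molecule.

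The 9 genes, the lists and the tests were chosen with earlier results of these data known. Named beside the 9 were list genes that passed (at most 5 per list), Ptprc, Ptpn22 and Ptpn6, and for a gene of the 9 that passed the 3 most alike genes. Other genes are given as examples of their list or as cell type markers, chosen after their values were seen. A gene fixed for naming is not reported here. Markers of mast cells and basophils summed to at most 0.307 CPM and those of erythroid cells and megakaryocytes to 3.21 to 13.8 CPM in any line.

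Condition, mouse and letter came from the sample labels. Lines with the same first digit come from the same mouse. Deviations from condition means correlated at 0.0853 to 0.240 between EV and BCR-ABL1 lines from one mouse. Across mice they correlated at -0.203 to -0.0636. The mouse was therefore the block in an alternative fit, while the main fit had no block. For the same mouse and letter the deviations correlated at -0.109 to 0.0856 once the means of each mouse and condition were removed. With so few lines per mean, these values cannot exclude a pairing by letter. The paper says that triplicates came from independent experiments, and the labels do not say whether letters mark them. Lines were paired by letter only in an alternative fit. Chi-square statistics of counts per gene were 9.96 to 481 within a mouse and condition, and no lines were merged.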

Additional observations from a re-analysis of the deposited data

Results flagged for a closer look

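Among groups of 6 lines, 3 values lay far from the rest by Dixon's ratio of the gap to the range. Chance passes the limit of this ratio in about 1 in 20 groups. The number of groups searched is not given here, so these 3 values cannot be set against the number that chance would give. Lyn was high in EV 2B at 232 CPM (ratio 0.652). Blk was low in EV 2C at 67.5 CPM (ratio 0.759). Bank1 was high in BCR-ABL1 1A at 62.5 CPM (ratio 0.692).

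The change from EV to BCR-ABL1 differed between the mice by the interaction in edgeR for 5 named genes. Mouse 2 minus mouse 1, the difference of log2 fold changes was -0.53 for Fyn, -0.98 for Lck, -0.53 for Csk and -1.27 for Pag1. For Zap70 it was -2.22 (adjusted p = 0.000147).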

How the results depend on the processing

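Fgr was called lower under every alternative that tested it on lines of both mice or of mouse 1. Over all alternatives that tested it, the lines of mouse 2 alone among them, its log2 fold change lay between -3.63 and -1.73. With the lines of mouse 2 alone it was not called (adjusted p = 0.143), and a CPM filter left 0 of the members called lower because it removed Fgr. Against no change, 1 member was called higher and 4 lower, 3389 and 3897 of all genes, and 14 and 8 of the list genes. With mouse as replicate block, 1 member (Src) and 5 list genes were called higher, the calls gained among members and list genes were Src, Ptpn22, Matk and Ezr, and none was lost. With the lines of mouse 1 alone, 2 members were higher (Src and Pag1) and 2 lower (Lyn and Fgr), with 2512 and 1877 of all genes and 10 and 9 list genes. With the lines of mouse 2 alone, 408 of all genes and 2 list genes were lower. Without EV 2B and 2C, chosen after seeing the data, 1432 of all genes and 5 list genes were higher. The CPM filter left 1 list gene called higher.

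Leaving out each line in turn gave 0 to 1 members higher and 1 lower, 807 to 1353 of all genes higher and 802 to 1434 lower, and 3 to 4 list genes higher and 4 to 7 lower. The highest counts of all genes came without EV 2C. Within mouse 1 it gave 1 to 2 members, within mouse 2 it gave 1 to 4, for the difference between the mice 0 to 5, and between EV lines 0 to 1. Without a filter 2 members passed in mouse 1 (Fgr and Yes1), 2 in mouse 2 and 1 between EV lines (Yes1). The CPM filter left 0 in mouse 1, and the likelihood ratio fit gave 2 in mouse 2 (Fgr and Fyn). Alternatives for the contrasts within a mouse or condition were added after seeing the data. For these contrasts and for the difference between the mice, the share of all genes was counted only in the main fit.

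Signs turned for Blk (-0.057 in mouse 1 alone), Lck (-0.39 in mouse 2 alone) and Pag1 (-0.52 in mouse 2 alone and -0.052 to 0.269 over the leave-outs). Per kb of the longest transcript, the Yes1 share in BCR-ABL1 lines was 0.0171% in place of 0.0125%. The cause of these shifts was not tested. Precision is limited for Fgr, Src and Yes1, which had at most 90 counts in any line.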
